A study of Mus musculus with 24 samples.

Results

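The ephrin, Eph, semaphorin, plexin, neuropilin, Slit, Robo, netrin and Unc5 genes were described in cells sorted from day 6 mouse embryoid bodies (clusters grown from differentiating embryonic stem cells), in 4 fractions. They were picked out by a rule on gene symbols, which gave 93 probes of 62 genes among the 25697 probes and 18120 symbols of the array. Of these 62 genes, 37 were detected on all 3 arrays of at least 1 group and could be tested, and 25 could not. All cells were of the Ainv15 strain, per the labels, and carried an ICN1 (the intracellular part of the Notch1 receptor) that doxycycline switches on. In the induced condition ICN1 was on from day 3 to day 5, and in the non-induced condition it was not switched on. Both were harvested on day 6 and sorted into CD41 sp, VE sp, DP and DN cells, names that the labels do not spell out. The 8 groups had 3 arrays each, 24 in all. The labels do not say whether the replicates were separate cultures, and the p-values cover the spread among the 3 arrays of a group, which may be partly technical. Doxycycline came with every induction, and its effect and that of ICN1 cannot be told apart.

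These genes are best known for steering growing axons, and many also act where blood vessels form. Ephrins are ligands anchored in the cell membrane, of class A by a lipid and of class B by a transmembrane segment, and they bind Eph receptor tyrosine kinases on a neighbouring cell. Semaphorins signal through plexins, those of class 3 mostly with neuropilins as partners, while Slits bind Robo receptors and netrins bind Dcc, neogenin and the Unc5 receptors. In vessels, ephrin-B2 is known as a marker of arteries and its receptor EphB4 as one of veins, and Robo4, Plxnd1 and Unc5b are known from endothelial cells.

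The tested genes came from each of these families. They were 3 of 5 class A ephrins, 3 of 3 class B ephrins, 4 of 8 Epha and 3 of 5 Ephb receptors. They also took in 12 of 19 semaphorins, 6 of 9 plexins and neuropilins, 1 of 3 Slits, 2 of 3 Robo receptors, 1 of 3 netrins and 2 of 4 Unc5 receptors. The untested genes were Efna2, Efna3, Epha4, Epha5, Epha6, Epha8, Ephb3, Ephb6, Ntn1, Ntn4, Plxna3, Plxna4, Plxnb3, Robo2, Sema3c, Sema3d, Sema3e, Sema4f, Sema5b, Sema6a, Sema6c, Slit1, Slit3, Unc5a and Unc5d. Of these, Ntn1 was detected on none of the 24 arrays. Slit3 was detected on 4, all of DN cells, where it read 4.77, 5.52 and 5.60 without and 4.96, 4.84 and 5.73 with induction. Neuropilin-1, the class 3 semaphorin co-receptor, is named Nrp in the tables, a name that the choice by symbol did not take, and its values are given apart.

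Levels are log2 intensities after background correction and quantile normalization, given as the mean ± SD of 3 arrays, and each difference is on the log2 scale, ± the standard error from limma. An array detected a probe where its detection p-value was under 0.05, and a level that no array of a group detected is only an upper bound. Such a difference is given as at least N-fold, the brighter mean divided by a ceiling for the dim group, taken on each of its arrays as the probe's reading or the dimmest detected reading, whichever was higher. Genes were called at limma's adjusted p under 0.05, over 9591 genes. A second fit held the replicate set (1 array of every group) as a block, and some calls that passed only with it are given with its p. For 12 of the 37 genes another probe did not pass the detection filter, and values and statements of detection are those of the brightest probe that passed. The sort markers followed the fraction names in part, as Itga2b was higher in VE sp than in DN cells. Itga2b, which encodes CD41, stood lowest in non-induced DN cells (7.91 ± 0.14), at 9.52 ± 0.41 in VE sp and at 11.27 ± 0.21 in DP cells, and read 10.85, 11.36 and 10.79 in CD41 sp cells. Cdh5, which encodes VE-cadherin, stood at 10.36 ± 0.62 in VE sp and 9.64 ± 0.34 in DP cells and was not detected in CD41 sp or DN cells of either condition. The Notch target Hey1 was higher in induced than in non-induced cells by 2.5 ± 0.30 on average over the fractions (limma, adjusted p = 3.99e-05). The Notch1 probe was higher by 0.44 ± 0.16 (0.179), and whether it reads the ICN1 transcript was not tested. One array stood apart. Replicate 3 of non-induced VE sp was the dimmest, with a mean raw intensity of 165, and it detected 21 of the 37 guidance genes against 34 and 32 on the other arrays of its group. The calls in VE sp induction and the call counts of the fraction comparisons are given with and without it. Most other results are given only with it.

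**Figure D1:**
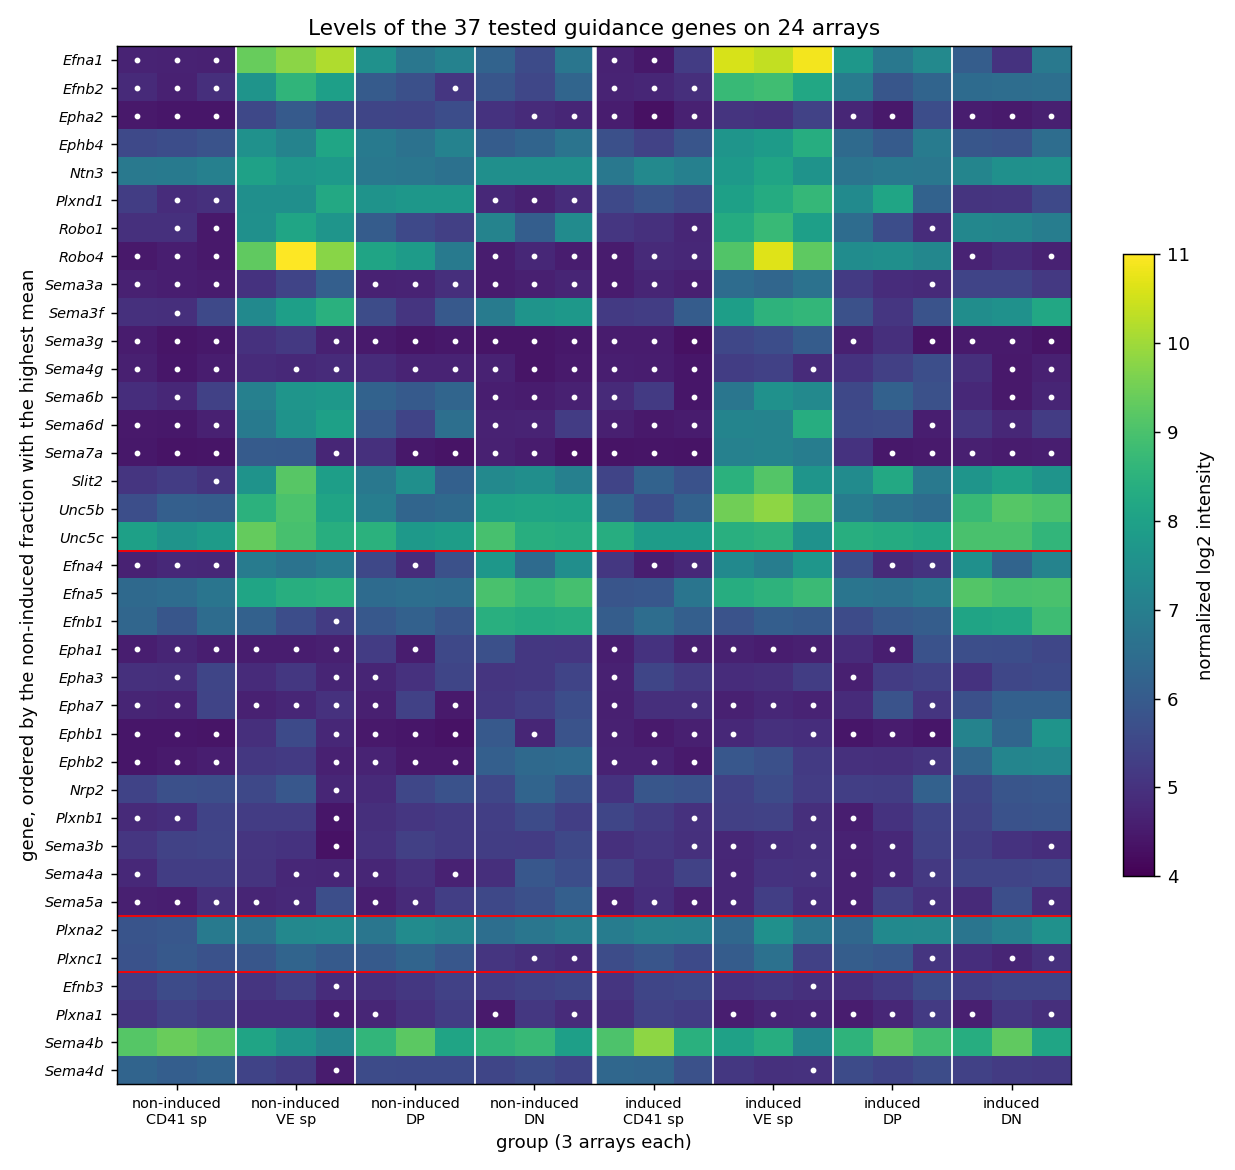
Normalized log2 intensity of the 37 tested guidance genes (vertical axis) on the 24 arrays (horizontal axis, 3 per group, replicates 1 to 3 from left to right). White dots mark arrays that did not detect the probe, and red lines part the genes by the non-induced fraction with the highest mean. In non-induced cells Robo4, Efna1, Efnb2, Sema6b and Sema6d were brightest in VE sp cells and Efnb1 and Efna5 in DN cells.

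The first question was how the guidance genes differed between the sorted fractions without induction. An F test over the 4 non-induced fractions called 26 of the 37 genes, beside 35.2% of all genes. Of these 26 genes, 16 had their highest mean in VE sp, 7 in DN, 2 in CD41 sp and 1 in DP cells. Over all 3374 genes called by the same test, 33% had their highest mean in VE sp, 26.7% in DN, 25.7% in CD41 sp and 14.5% in DP cells. The guidance shares were 61.5%, 26.9%, 7.69% and 3.85%, so that of DN cells was near the share over all called genes. CD41 sp cells held the lowest mean of 17 of the 26, beside 29% of all called genes. The filter keeps a gene through the group where it is bright, so these counts describe the tested genes and not all 62.

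Among the class A ephrins, Efna1, a ligand of EphA2 known from endothelial cells, differed most. Its level was 9.37, 9.78 and 10.16 on the 3 VE sp arrays, 7.54, 6.78 and 7.11 on the DP arrays, and 6.23, 5.61 and 6.74 on the DN arrays. In CD41 sp cells the probe read 4.69, 4.68 and 4.65, and no array detected it. VE sp cells lay above all other fractions with no overlap, and their level was 3.58 ± 0.37 above that of DN (limma, adjusted p = 1.53e-07) and at least 26.5-fold that of CD41 sp cells (6.15e-10). DP and DN cells were neighbours that did not differ beyond the threshold (0.95 ± 0.37, limma, adjusted p = 0.0697), except with the block (0.00819). Efna5 and Efna4 were ordered otherwise, with their highest means in DN cells. Efna5 stood at 8.88 ± 0.15 in DN and 8.33 ± 0.18 in VE sp cells, against 6.53 ± 0.17 in CD41 sp and 6.48 ± 0.04 in DP cells. DP cells differed from DN cells by -2.40 ± 0.20 (limma, adjusted p = 6.64e-09), while the smaller gap between VE sp and DN cells (-0.56 ± 0.20, 0.0441) was lost without replicate 1 of VE sp (0.151), among other arrays. Efna4 was detected on all VE sp and DN arrays and on no CD41 sp array, and its DN level was at least 4.46-fold that in CD41 sp cells (1.04e-05).

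Class B ephrins split between the VE sp and DN fractions. Efnb2, the ephrin of arteries, read 7.63, 8.57 and 7.95 on the VE sp arrays, 6.00, 5.71 and 5.11 on the DP arrays, 5.88, 5.49 and 6.29 on the DN arrays, and 4.85, 4.63 and 4.95 on the CD41 sp arrays. VE sp cells were apart from the other fractions, DP and DN overlapped, and CD41 sp cells were below detection on all 3 arrays. The VE sp level exceeded that of DN cells by 2.16 ± 0.28 (limma, adjusted p = 4.90e-06) and was at least 8.05-fold that of CD41 sp cells (1.12e-08). Efnb1, its close relative, showed the opposite placing. Its level was 8.43, 8.31 and 8.35 on the DN arrays and 6.18, 5.64 and 5.21 on the VE sp arrays, the last of them undetected. DP read 5.93, 6.16 and 5.83 and CD41 sp 6.30, 5.87 and 6.48. DN cells stood above all other arrays, and VE sp cells were lower than DN by a log2 difference of -2.69 ± 0.24 (limma, adjusted p = 1.97e-08), with no call among the other 3 fractions. Efnb3 lay between 4.90 and 5.60 on all 12 non-induced arrays and was called in no comparison.

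Of the Eph receptors, Ephb4, the receptor of ephrin-B2 known from veins, was also highest in VE sp cells. It read 7.55, 7.13 and 8.11 in VE sp, 6.87, 6.64 and 7.10 in DP, 6.03, 6.27 and 6.69 in DN, and 5.55, 5.64 and 5.79 in CD41 sp cells. The lowest DP array lay under the highest DN array, whereas VE sp and CD41 sp cells stayed clear of their neighbours in this order. VE sp exceeded DN cells by 1.27 ± 0.28 (limma, adjusted p = 0.00159), and CD41 sp cells were below VE sp cells by a difference of -1.94 ± 0.28 (1.19e-05). The steps from VE sp to DP (-0.73 ± 0.28, 0.117), from DP to DN (0.54 ± 0.28 higher in DP, 0.193) and from DN to CD41 sp cells (-0.67 ± 0.28, 0.123) passed only with the block (limma, adjusted p = 0.00152, 0.00858 and 0.00226). Ephb2 was highest in DN cells, at 6.32 ± 0.19, and was detected on 2 of 3 VE sp arrays and on no array of CD41 sp or DP cells. Its DN level was at least 2.57-fold that of DP (limma, adjusted p = 3.56e-06) and at least 2.42-fold that of CD41 sp cells (3.75e-06). Ephb1 followed the same order at 5.50 ± 0.65 in DN cells, where 2 of 3 arrays detected it. Epha2, the receptor of ephrin-A1, stood at 5.68 ± 0.27 in VE sp and 5.51 ± 0.11 in DP cells, was detected on 1 DN array and on no CD41 sp array. Its VE sp level was at least 1.56-fold that of CD41 sp cells (limma, adjusted p = 0.000161). Epha3 was called in no comparison, and Epha7 only with the block, lower in VE sp (0.0347) and DP (0.0459) than in DN cells.

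**Figure D2:**
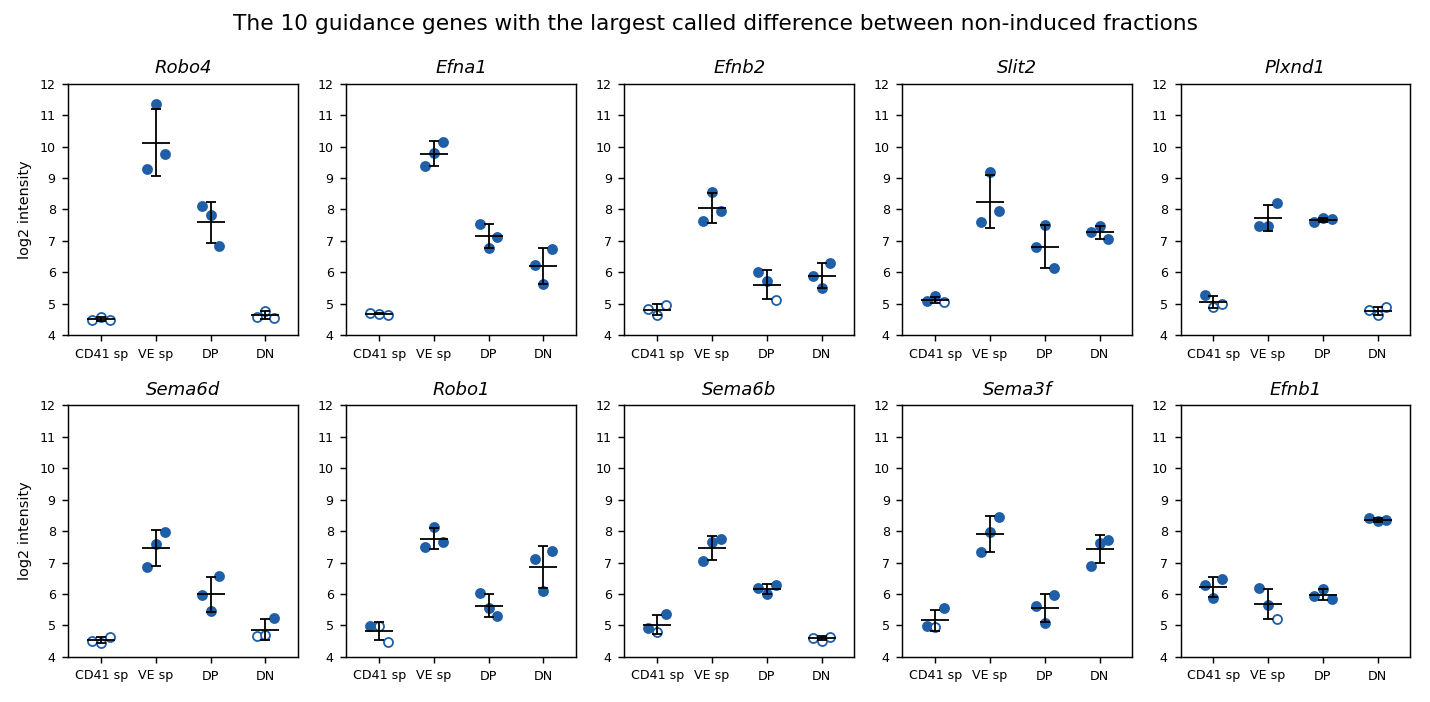
Log2 intensity (vertical axis) of the 10 guidance genes with the largest called difference between non-induced fractions, by fraction (horizontal axis). Points are arrays, open where the probe was not detected, with the mean and SD of 3 arrays as a horizontal and a vertical line. VE sp cells had the highest mean of 9 of the 10 genes and DN cells that of Efnb1.

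The semaphorins with the widest differences were Sema6b, Sema6d and Sema3f, all highest in VE sp cells. Sema6b, a transmembrane semaphorin, read 7.04, 7.64 and 7.75 in VE sp, 6.20, 5.99 and 6.28 in DP, 4.93, 4.79 and 5.36 in CD41 sp (2 of 3 arrays detected), and 4.59, 4.52 and 4.65 in DN cells (none detected). The fractions did not overlap, and the VE sp and DP levels were at least 5.79-fold (limma, adjusted p = 9.18e-09) and at least 2.32-fold (4.16e-05) that of DN cells. A second probe of the gene gave 1.92 and 1.10 for the same log2 differences. Sema6d, another transmembrane member, read 6.85, 7.58 and 7.98 in VE sp, 5.96, 5.45 and 6.57 in DP, 4.67, 4.69 and 5.24 in DN (1 of 3 detected), and 4.49, 4.45 and 4.63 in CD41 sp cells (none detected). Again VE sp and DP cells lay above the other fractions, with a VE sp level 2.60 ± 0.35 above DN (limma, adjusted p = 6.06e-06) and at least 5.39-fold that of CD41 sp cells (8.86e-07). Sema3f, a secreted semaphorin that uses neuropilin-2, was high in both VE sp and DN cells. It read 7.32, 7.96 and 8.46 in VE sp, 6.90, 7.63 and 7.73 in DN, 5.62, 5.09 and 5.97 in DP, and 4.98, 4.94 and 5.56 in CD41 sp cells. VE sp and DN cells overlapped and did not differ beyond the threshold (0.49 ± 0.34, limma, adjusted p = 0.320), and both lay above DP and CD41 sp cells. CD41 sp was below VE sp by a difference of -2.76 ± 0.34 (limma, adjusted p = 1.30e-06). A second Sema3f probe gave -2.38 for the same difference.

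Sema4b and Sema4d, transmembrane semaphorins of class 4, were the 2 called genes with their highest mean in CD41 sp cells. Sema4b stood at 9.25 ± 0.14 in CD41 sp, 8.65 ± 0.58 in DP, 8.42 ± 0.41 in DN and 7.66 ± 0.43 in VE sp cells. CD41 sp exceeded VE sp cells by 1.59 ± 0.38 (limma, adjusted p = 0.00262). Its other differences did not pass without the block, which added CD41 sp against DN (0.00869), DP against VE sp (0.00289) and VE sp against DN cells (0.0101). Sema4d, known from lymphocytes as CD100, stood at 6.20 ± 0.09 in CD41 sp and between 5.05 and 5.58 in the other fractions, and exceeded VE sp cells by 1.14 ± 0.20 (limma, adjusted p = 9.58e-05), DN cells by 0.69 ± 0.20 (0.0165) and DP cells by 0.61 ± 0.20 (0.0439). With the block, VE sp cells also differed in Sema4d from DN (0.0300) and DP cells (0.0227), being lower than both. Sema5a and Sema4a were highest in DN cells, at 5.78 ± 0.30 and 5.50 ± 0.51, and the tested Sema5a probe was lower in VE sp than in DN cells only with the block (0.0152). A second Sema5a probe, detected on no VE sp array, was lower there than in DN cells without the block (limma over probes, adjusted p = 0.00529). Sema3a, Sema3g and Sema7a were detected mainly in VE sp cells and are described with the induction. Sema4g was called in no comparison of fractions, and Sema3b only with the block, lower in VE sp than in DN (0.0317) and CD41 sp cells (0.0392).

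Among the receptors of semaphorins, Plxnd1 and Plxnc1 were called. Plxnd1, the endothelial plexin, read 7.47, 7.48 and 8.22 in VE sp, 7.58, 7.72 and 7.69 in DP, 5.26, 4.90 and 4.98 in CD41 sp (1 of 3 detected), and 4.79, 4.63 and 4.89 in DN cells (none detected). VE sp and DP cells overlapped and lay far above both other fractions. Their levels were at least 6.88-fold (limma, adjusted p = 3.56e-07) and at least 6.60-fold (4.78e-07) that of DN cells, and the 2 fractions differed by -0.06 ± 0.32. Plxnc1, a receptor of Sema7a, was lowest in DN cells at 4.95 ± 0.13, against 6.05 ± 0.20 in VE sp, 6.05 ± 0.19 in DP and 5.83 ± 0.11 in CD41 sp cells. It exceeded DN by 1.10 ± 0.26 in VE sp cells (limma, adjusted p = 0.00291). Nrp2, the co-receptor of Sema3f, read 5.53, 5.89 and 4.75 in VE sp, 4.85, 5.49 and 5.76 in DP, 5.48, 6.26 and 5.76 in DN, and 5.4, 5.70 and 5.68 in CD41 sp cells. On this probe the fractions overlapped throughout, and no difference was called, the lowest adjusted p being 0.340. A second Nrp2 probe, detected on 5 of the 24 arrays and not tested, read 5.16, 5.41 and 5.24 in VE sp cells and between 4.36 and 4.84 in the other non-induced fractions, with no overlap. Plxnb1 was not called either. With the block, Plxna2 was lower in CD41 sp than in VE sp (0.00286) and DP cells (0.0044), and Plxna1 higher in CD41 sp than in VE sp cells (0.0322), none of which passed without it. Neuropilin-1, named after its symbol was read, read 11.41, 12.02 and 11.28 in VE sp, 10.17, 10.28 and 10.28 in DN, 9.65, 9.13 and 8.21 in DP, and 6.68, 6.57 and 6.31 in CD41 sp cells, with no overlap between fractions. Its CD41 sp level was lower than that of VE sp cells, with a difference of -5.05 ± 0.29 (limma, adjusted p = 2.51e-11).

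The widest difference of all belonged to Robo4, the Robo receptor of endothelial cells. It read 9.28, 11.34 and 9.75 in VE sp, 8.09, 7.83 and 6.85 in DP, 4.48, 4.58 and 4.49 in CD41 sp, and 4.56, 4.78 and 4.55 in DN cells. Every VE sp array exceeded every DP array, and this probe was detected on no array of CD41 sp or DN cells. A second Robo4 probe, detected on 5 of the 24 arrays and not tested, did not show this order, and read from 4.44 to 5.02 in VE sp and from 4.84 to 5.29 in CD41 sp and DN cells. The other probe of Robo4 was detected on no array. VE sp cells held at least 36.3-fold the DN level (limma, adjusted p = 1.38e-09) and at least 33.9-fold the CD41 sp level (7.99e-10), and DP cells at least 6.27-fold the DN level (9.79e-06). Robo1, a receptor of Slit proteins in axons, was spread more widely. It read 7.50, 8.12 and 7.66 in VE sp, 7.12, 6.09 and 7.37 in DN, 6.03, 5.56 and 5.31 in DP, and 4.97, 4.98 and 4.49 in CD41 sp cells, where 1 array detected it. VE sp and DN cells did not overlap, and their gap (0.90 ± 0.34) passed only with the block (limma, adjusted p = 0.0224, against 0.0615 without it). CD41 sp cells were below VE sp cells by a difference of -2.95 ± 0.34 (limma, adjusted p = 7.52e-07).

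Slit2, a secreted Robo ligand, was also high in VE sp and DN cells. It read 7.60, 9.19 and 7.94 in VE sp, 7.29, 7.47 and 7.06 in DN, 6.79, 7.50 and 6.14 in DP, and 5.09, 5.24 and 5.04 in CD41 sp cells (2 of 3 detected). CD41 sp cells lay below all others, while DP and DN cells overlapped. VE sp exceeded DN cells (0.97 ± 0.41) only with the block (limma, adjusted p = 0.00432, against 0.0954 without it). The difference of CD41 sp from VE sp cells was -3.12 ± 0.41 (limma, adjusted p = 4.37e-06). DP cells were below VE sp cells by -1.43 ± 0.41 (0.0281), which was lost without replicate 2 of VE sp (0.204) or replicate 1 (0.0736) or 3 (0.183) of DP cells. Unc5b, the vascular netrin receptor, read 8.49, 9.03 and 8.08 in VE sp, 8.04, 8.08 and 8.07 in DN, 6.96, 6.29 and 6.39 in DP, and 5.69, 6.13 and 6.07 in CD41 sp cells. VE sp and DN cells were neighbours within 0.47 ± 0.25 (limma, adjusted p = 0.185), both above DP and CD41 sp cells without overlap. CD41 sp cells differed from VE sp cells by -2.57 ± 0.25 (limma, adjusted p = 4.28e-08). Unc5c, another netrin receptor, ranged less, from 7.82 ± 0.17 in CD41 sp to 8.91 ± 0.48 in VE sp cells. Ntn3, a secreted netrin, stood at 7.82 ± 0.16 in VE sp, 7.49 ± 0.01 in DN, 6.91 ± 0.11 in CD41 sp and 6.72 ± 0.10 in DP cells, and DP was below VE sp with a difference of -1.09 ± 0.17 (limma, adjusted p = 9.23e-05).

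Counted by comparison, 17 of the 37 genes were called between VE sp and DN cells, 12 higher and 5 lower in VE sp, beside 24.6% of all genes (12.4% higher and 12.2% lower). The median difference was 0.33 over the guidance genes and -0.09 over all genes. The 5 called lower in VE sp cells were Efna5, Efnb1, Epha1, Ephb2 and Sema4a. Between DP and DN cells 17 were called, 6 higher and 11 lower in DP, beside 22% of all genes (11.1% higher, 10.9% lower), with medians of -0.20 and -0.04. CD41 sp cells differed from DN cells in 15, of which 13 were lower and Plxnc1 and Sema4d higher, beside 15.6% (7% higher, 8.62% lower). These 3 comparisons share the DN arrays.

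Set against VE sp cells, DP cells were lower in all 15 genes called without the block, beside 10.2% of all genes (3.88% higher, 6.31% lower). The median was -0.43, against 0.05 over all genes. CD41 sp cells differed from VE sp cells in 21 genes, 19 lower and 2 higher, beside 28.8% (14.3% higher, 14.5% lower), with medians of -0.88 and 0.10. From DP cells they differed in 9, of which 8 were lower and Sema4d higher, beside 12.3% (5.23% higher, 7.1% lower). Of the calls of each comparison, 12 of 17, 11 of 17, 9 of 15, 10 of 15, 20 of 21 and 7 of 9, in the order given here, held with any 1 array left out. Without replicate 3 of VE sp they came to 16, 16, 15, 15, 21 and 9. With replicate 3 of DN left out, the call count of CD41 sp against DN cells fell to 9.

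The fractions also differed in markers of other cell types, and the part of these in the guidance genes was not tested. All 10 listed endothelial markers were called higher in VE sp and in DP than in DN cells. The mean level of that list ranged from 10.74 to 11.24 over the VE sp arrays, from 9.52 to 9.97 in DP, from 6.24 to 6.55 in CD41 sp and from 5.18 to 5.30 in DN cells. Cdh5, Tie1 and Emcn were detected on no non-induced DN array. The 8 erythroid markers were high in both CD41 sp (12.18 to 12.36) and DN cells (12.08 to 12.82), and lower in VE sp (7.51 to 7.86) and DP cells (8.06 to 9.02). DN cells stood highest in the list of 7 measured epithelial and endoderm markers (8.65 to 9.65, against 5.49 to 7.0 elsewhere) and in that of 6 mesenchyme markers (7.56 to 8.13, against 4.80 to 5.98). They also stood highest in the 5 measured pluripotent and primitive streak markers (7.92 to 8.73, against 4.56 to 5.79), which were all called lower in each other fraction than in DN cells. VE sp cells stood highest in the 3 measured neural markers (7.34 to 7.98, against 4.74 to 6.10), of which 2 were called higher than in DN and than in CD41 sp cells. In sorted bulk RNA, fewer cells of a type and less RNA per cell cannot be told apart.

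The second question was how the guidance genes responded to ICN1 induction. In VE sp cells 3 of 37 were called, all higher, beside 1.14% of all genes (0.98% higher). They were the semaphorins Sema7a, Sema3a and Sema3g. In DN cells 1 was called, the receptor Ephb1, higher, beside 0.928% of all genes (0.73% higher). None was called in CD41 sp cells (0.0938% of all genes) or in DP cells (0.136%). An unadjusted p under 0.05 (limma) was reached by 8 of the 37 for VE sp cells, 7 for DN, 4 for DP and 1, Plxna2, for CD41 sp cells. How many of all genes reached that looser threshold was not counted, so no excess can be read from these numbers. On average over the 4 fractions 3 were called, all higher, beside 2.97% (2.05% higher). These were Sema3a, Unc5b and Ephb2. The members' median response was 0.14 in VE sp, 0.15 in DN, 0.05 in DP and 0.02 in CD41 sp cells, against 0.01, 0.01, 0.02 and -0.01 over all genes.

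Sema7a, a semaphorin anchored in the membrane by a lipid, gave the largest response in VE sp cells. It read 6.01, 5.97 and 4.75 on the non-induced arrays, the last of them undetected, and 7.09, 7.12 and 6.97 on the induced arrays. All induced arrays lay above all non-induced ones. These values are those of 1 of 3 Sema7a probes, and no array of any group detected the others, which were not tested. The rise was 1.48 ± 0.25 (limma, adjusted p = 0.00286), and without the dimmest array, non-induced replicate 3, it was 1.07 (0.00856). In the other fractions Sema7a was detected on no array of CD41 sp or DN cells and on 1 DP array of each condition. The call was kept with any other single array left out, but not without replicate set 1 (limma, adjusted p = 0.129), 2 (0.0843) or 3 (0.0529), with median scaling (0.154) or in the authors' processed values (0.582).

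Sema3a, a secreted semaphorin that acts through neuropilin-1, read 5.02, 5.43 and 6.11 on the non-induced VE sp arrays and 6.49, 6.32 and 6.65 on the induced ones. The groups did not overlap, and the rise was 0.96 ± 0.21 (limma, adjusted p = 0.0171). It was lost without non-induced replicate 1 (0.146) or 2 (0.0761) or induced replicate 1 (0.0656) or 3 (0.109), and was 1.26 (0.00146) without the dimmest array. Median scaling (limma, adjusted p = 0.0507) and the authors' processed values (0.757) did not give the call. In DN cells no non-induced array detected Sema3a (4.55, 4.62 and 4.72), and all 3 induced arrays did (5.44, 5.43 and 5.16). That rise, at least 1.32-fold, passed with the replicate set as a block (limma, adjusted p = 0.0368) and not without it (0.151). In DP cells the induced arrays read 5.19, 4.88 and 4.84, of which 2 were detected, against 4.66, 4.70 and 4.95 undetected. CD41 sp cells did not detect it. On average over the fractions Sema3a was called higher (limma, adjusted p = 0.00996). That average takes in groups that no array detected, so its size is no measured fold. The call was kept with any 1 array left out, and lost without replicate set 1 (limma, adjusted p = 0.420) or 2 (0.237) and in the authors' processed values (0.436).

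Sema3g, a secreted semaphorin known from arterial endothelium, read 5.00, 5.16 and 4.65 in non-induced VE sp cells, where 2 arrays detected it, and 5.48, 5.67 and 6.03 in induced ones. The groups did not overlap, and the rise was 0.79 ± 0.18 (limma, adjusted p = 0.0254). It was 0.65 (0.153) without the dimmest array and was lost also without non-induced replicate 1 (0.0689) or induced replicate 2 (0.0706) or 3 (0.204), with median scaling (0.288) and in the authors' processed values. Outside VE sp cells 1 induced DP array alone detected Sema3g.

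Ephb1, a receptor of class B ephrins, read 5.96, 4.76 and 5.78 in non-induced DN cells (2 of 3 detected) and 7.13, 6.27 and 7.61 in induced DN cells. Every induced array exceeded every non-induced one. The rise was 1.5 ± 0.29 (limma, adjusted p = 0.00913), and it was lost without non-induced replicate 2 (0.0643) or induced replicate 3 (0.0781), with median scaling (0.0724) and in the authors' processed values (0.483). In VE sp cells Ephb1 read 4.94, 5.56 and 4.77 without induction and 4.81, 4.98 and 4.91 with it, and no array of CD41 sp or DP cells detected it.

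**Figure D3:**
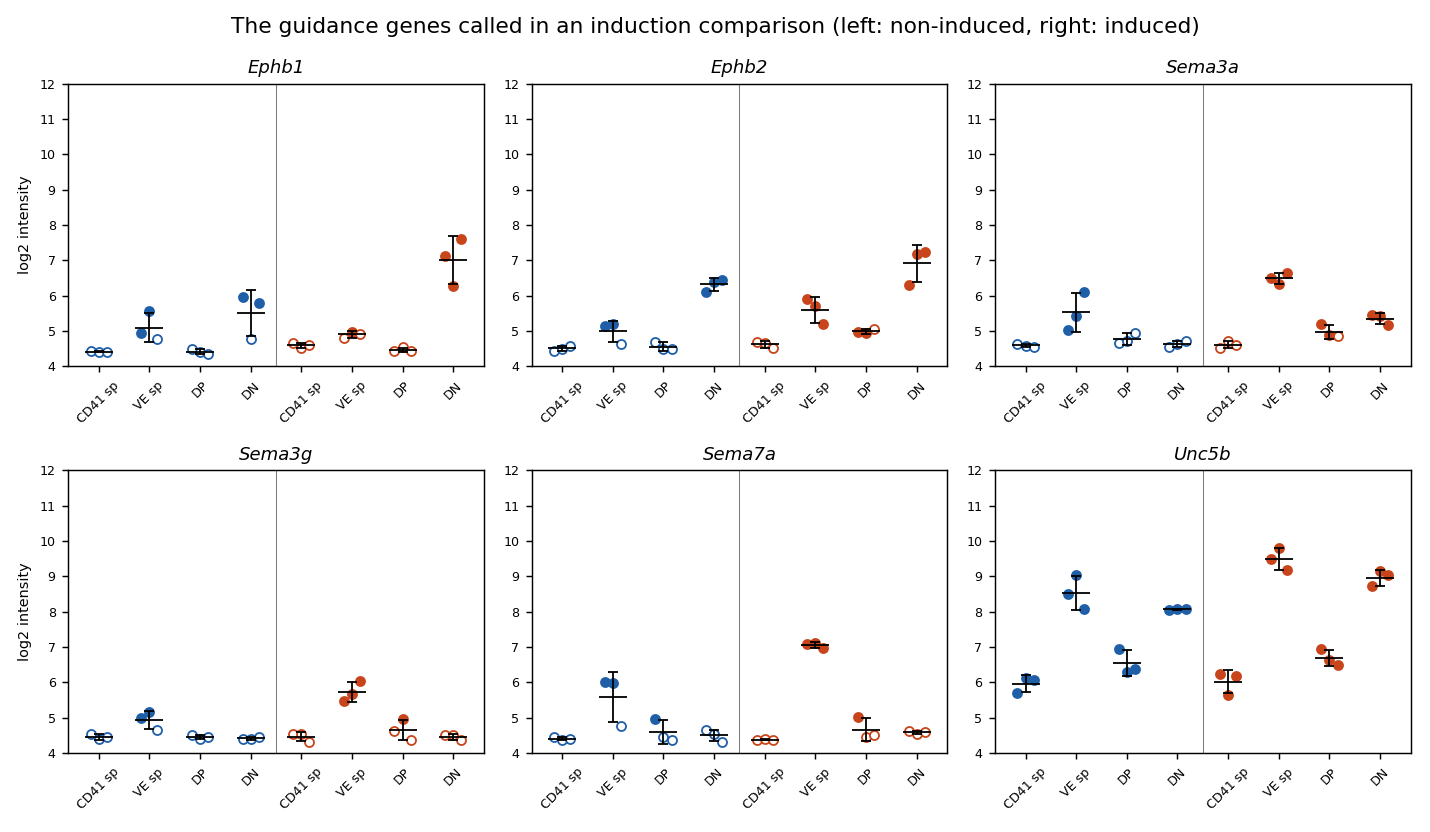
Log2 intensity (vertical axis) of the 6 guidance genes called in an induction comparison, by fraction (horizontal axis), non-induced at left in blue and induced at right in red. Points are arrays, open where not detected, and lines give the mean and SD of 3 arrays. Induced VE sp arrays lay above all non-induced VE sp arrays for Sema3a, Sema3g, Sema7a and Unc5b, and induced DN arrays above non-induced ones for Ephb1, Sema3a and Unc5b.

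Unc5b was called on average, at 0.51 ± 0.12 (limma, adjusted p = 0.0243). In VE sp cells it read 8.49, 9.03 and 8.08 without and 9.48, 9.81 and 9.17 with induction, and in DN cells 8.04, 8.08 and 8.07 without and 8.71, 9.15 and 9.03 with it. Neither pair of groups overlapped. The rises of 0.95 ± 0.25 in VE sp (limma, adjusted p = 0.0684) and 0.90 ± 0.25 in DN cells (0.117) passed only with the replicate set as a block (0.0191 and 0.0329). CD41 sp cells read 5.69, 6.13 and 6.07 against 6.23, 5.65 and 6.17, and DP cells 6.96, 6.29 and 6.39 against 6.93, 6.63 and 6.48, both with overlap. The average call was lost without replicate 1 of non-induced CD41 sp (0.0560), replicate 2 (0.0520) or 3 (0.0509) of non-induced DP or replicate 2 of induced VE sp cells (0.0515). It was lost as well without replicate set 1 (limma, adjusted p = 0.354), 2 (0.0780) or 3 (0.137), with median scaling (0.946, and 0.324 with the block) and in the authors' processed values (0.727).

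Ephb2, another receptor of class B ephrins, was called higher on average (limma, adjusted p = 0.0373), an average that takes in groups that no array detected. In DN cells it read 6.11, 6.39 and 6.45 without and 6.30, 7.19 and 7.24 with induction. In VE sp cells it read 5.13, 5.20 and 4.64 without and 5.90, 5.72 and 5.19 with it, so both pairs of groups overlapped. DP cells read 4.69, 4.49 and 4.48, all undetected, against 4.96, 4.94 and 5.06, of which 2 were detected, and CD41 sp cells did not detect it. The call was lost on leaving out any of 16 single arrays, the dimmest among them, at limma's adjusted p of up to 0.0749. It was also lost with median scaling (limma, adjusted p = 0.207) and in the authors' processed values (0.641).

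With the replicate set as a block, 5 guidance genes passed in VE sp cells, 4 of them higher, beside 4.36% of all genes (3.16% higher). In DN cells 3 passed, all higher, beside 4.11% (2.41% higher), and on average 9, of which 8 were higher, beside 12.9% (7.15% higher). In VE sp cells these added Unc5b and the lower Unc5c, at -0.73 ± 0.27 (limma, adjusted p = 0.0239 with the block and 0.399 without it). On average they added Slit2 (limma, adjusted p = 0.0137 with the block and 0.288 without it), Sema7a (0.0142 and 0.105), Efnb2 (0.0305 and 0.0896), Sema4g (0.0311 and 0.133), Sema3g (0.0350 and 0.148) and, lower, Epha2 (0.0301 and 0.132). Efnb2 read 8.72, 8.85 and 8.20 in induced VE sp, 6.90, 5.87 and 6.25 in induced DP and 6.46, 6.50 and 6.55 in induced DN cells, the last of which did not overlap with the non-induced DN arrays. Slit2 read 5.42, 6.20 and 5.77 in induced CD41 sp cells, above all 3 non-induced arrays, and 8.47, 9.12 and 7.65 in VE sp, 7.36, 8.23 and 6.83 in DP and 7.65, 8.01 and 7.63 in DN cells, the last again above all non-induced DN arrays.

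The remaining guidance genes with a value given for every array were called in no induction comparison, with or without the block. Induced Ephb4 read 7.65, 7.84 and 8.37 in VE sp, 6.41, 6.02 and 6.93 in DP, 5.87, 5.79 and 6.50 in DN and 5.70, 5.38 and 5.84 in CD41 sp cells, overlapping with the non-induced arrays in each fraction. Induced Plxnd1 read 7.98, 8.31 and 8.65 in VE sp, 7.34, 8.12 and 6.20 in DP, 5.54, 5.81 and 5.60 in CD41 sp and 5.07, 5.08 and 5.53 in DN cells. Its CD41 sp and DN arrays lay above all non-induced ones, though neither difference was called. Induced Robo4 read 9.10, 10.67 and 9.26 in VE sp and 7.42, 7.48 and 7.23 in DP cells and its tested probe was detected on no CD41 sp and on 1 DN array. Induced Sema3f read 7.91, 8.53 and 8.63 in VE sp, 7.44, 7.54 and 8.20 in DN, 5.73, 5.10 and 5.78 in DP and 5.20, 5.27 and 6.05 in CD41 sp cells. Induced Sema6d read 7.17, 7.12 and 8.36 in VE sp, 5.58, 5.62 and 4.58 in DP, 5.10, 4.79 and 5.25 in DN and 4.62, 4.48 and 4.52 in CD41 sp cells. Both semaphorins overlapped with their non-induced arrays in every fraction. Efna1 reached 10.59, 10.35 and 10.87 in induced VE sp cells, above the non-induced arrays, and that difference was not called (0.83 ± 0.37, limma, adjusted p = 0.599). It read 7.72, 6.81 and 7.28 in induced DP, 6.05, 5.04 and 6.84 in induced DN and 4.67, 4.46 and 5.23 in induced CD41 sp cells, where 1 array detected it. Induced Efnb1 read 8.09, 8.20 and 8.82 in DN, 6.06, 6.51 and 6.12 in CD41 sp, 5.80, 6.10 and 5.97 in VE sp and 5.60, 5.96 and 6.07 in DP cells, so DN cells stayed the highest. Induced Sema6b read 6.75, 7.54 and 7.28 in VE sp, 5.52, 6.17 and 5.72 in DP, 4.83, 5.18 and 4.42 in CD41 sp and 4.80, 4.49 and 4.72 in DN cells. Induced Robo1 read 8.31, 8.72 and 7.95 in VE sp, 7.25, 7.20 and 6.95 in DN, 6.49, 5.66 and 4.89 in DP and 5.10, 4.96 and 4.76 in CD41 sp cells. Efnb1, Sema6b and Robo1 overlapped with their non-induced arrays in every fraction. Induced Nrp2 read 5.34, 5.61 and 5.24 in VE sp, 5.30, 5.27 and 6.16 in DP, 5.48, 5.86 and 5.90 in DN and 5.01, 5.86 and 5.77 in CD41 sp cells, with an average difference of 0.02 ± 0.16 (limma, adjusted p = 0.986). Neuropilin-1, outside the chosen symbols, read 12.08, 12.19 and 11.73 in induced VE sp, 10.53, 10.81 and 10.73 in DN, 9.92, 9.34 and 8.92 in DP and 6.77, 6.89 and 7.20 in CD41 sp cells. Its average difference of 0.43 ± 0.15 passed with the block (limma, adjusted p = 0.0318) and not without it (0.147).

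Counted without a test, induced and non-induced arrays did not overlap for 7 of the 37 genes in VE sp (18.9%, beside 10.6% of all genes), 9 in DN (24.3%, 11.1%), 5 in CD41 sp (13.5%, 8.3%) and 3 in DP cells (8.11%, 9.06%). Averaged over the fractions, 26 guidance genes were higher and 11 lower in induced cells, readings of undetected groups included. The same count was not made over all genes, and the median average difference was 0.066 over the guidance genes and 0.003 over all genes. An F test asked whether the response differed among the fractions and called no guidance gene, beside 0.146% of all genes. Of the 37, 6 had an unadjusted p under 0.05 in that test, beside 384 of all 9591 genes, and the lowest adjusted p was that of Sema7a (limma, adjusted p = 0.172), the one gene that passed with the block (0.0139, beside 2.11% of all genes). No guidance gene passed with the block under median scaling or in the authors' processed values. A response called in VE sp or DN cells is therefore not shown to differ from that in the other fractions.

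**Figure D4:**
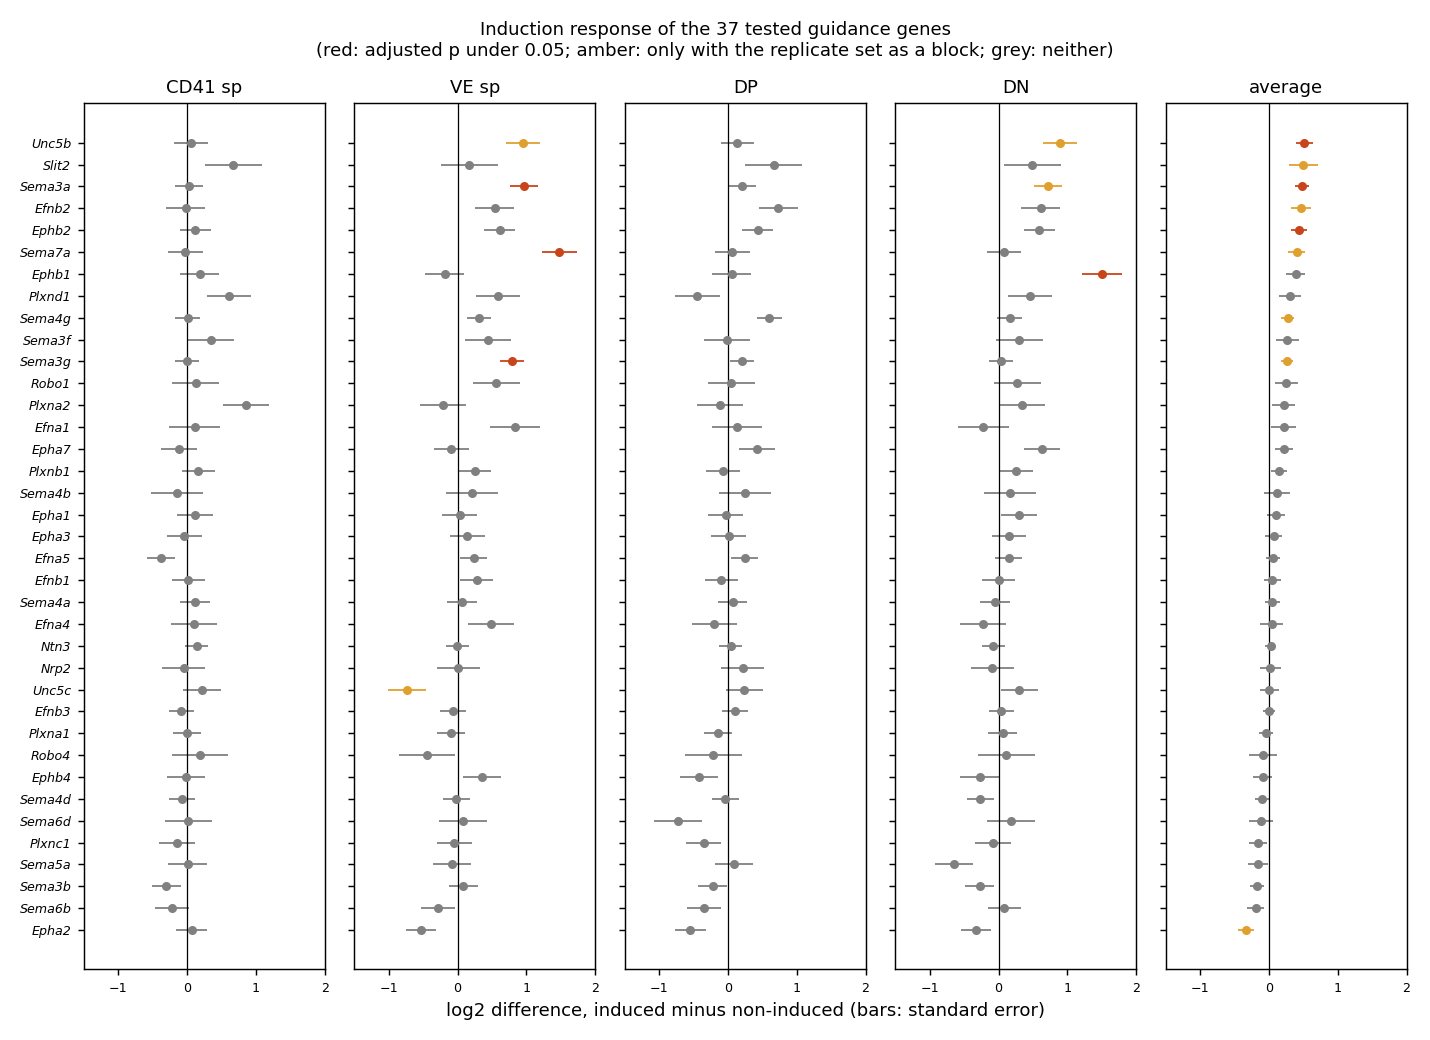
Log2 difference of induced minus non-induced cells (horizontal axis, bars for limma's standard error) of the 37 guidance genes (vertical axis, ordered by the average) in each fraction and on average. Red points had an adjusted p under 0.05, amber points only with the replicate set as a block. The largest responses were Ephb1 in DN cells (1.5) and Sema7a in VE sp cells (1.48).

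Cell type markers were measured beside these responses. The mean level of the 10 endothelial markers ranged from 10.74 to 11.24 on non-induced and from 11.16 to 11.38 on induced VE sp arrays, with none called. The 8 arterial markers, a list that holds the Notch targets Hey1 and Hey2, ranged from 8.31 to 8.53 and, with no overlap, from 8.82 to 9.09, with none called. In DN cells the arterial list ranged from 5.20 to 5.59 without and from 5.86 to 6.33 with induction (2 called higher), and the endothelial list from 5.18 to 5.30 and from 5.36 to 5.80 (1 called higher), with Cdh5, Tie1 and Emcn undetected in both. Of the 2 measured venous markers 1, Agtrl1, was called lower in VE sp and in DN cells and on average. The other, Emcn, was called in none of these. The mean level of both ranged from 9.97 to 10.62 on non-induced and from 10.01 to 10.39 on induced VE sp arrays, so the list as a whole did not fall there. In DN cells 1 of 3 neural markers was called higher and 1 of 7 epithelial and endoderm markers lower. The part of these lists in the responses of Sema3a, Sema3g, Sema7a, Unc5b, Ephb1 and Ephb2 was not tested.

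Other genes of guidance signalling, from a list of 55, were measured for comparison, and 29 were tested. These are co-receptors, netrin and repulsive guidance receptors, and the proteins that link the receptors to the cytoskeleton. Under induction 1 was called in VE sp cells, beside 1.14% of all genes. It was Dpysl4, a cytoplasmic mediator of the collapsin response family, at 1.29 ± 0.22 (limma, adjusted p = 0.00363). On average Dpysl4 was also the 1 called (0.69 ± 0.11, limma, adjusted p = 0.000959), beside 2.97% of all genes. In DN cells 1 was called, Vav3, at 1.64 ± 0.38 (limma, adjusted p = 0.0390), beside 0.928% of all genes. Between non-induced CD41 sp and VE sp cells 4 were higher and 10 lower in CD41 sp cells, beside 28.8% of all genes (14.3% higher, 14.5% lower). Among the lower were Flrt3, a membrane protein that binds Unc5 receptors (-4.49 ± 0.39, limma, adjusted p = 1.02e-08), and Neo1, the netrin receptor neogenin (-2.99 ± 0.37, 1.95e-06). VE sp cells were higher than DN cells in 7 and lower in 4, beside 24.6% of all genes (12.4% higher, 12.2% lower). Between DP and DN cells 4 were higher and 4 lower in DP, beside 22% of all genes (11.1% higher, 10.9% lower). Among them were Vav3 (3.85 ± 0.38, limma, adjusted p = 9.78e-08) and the proteoglycan Gpc1, a Slit-binding glypican (-4.09 ± 0.37, 2.42e-08).

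Promoter sequences were set beside the genes called within a fraction under induction and beside Robo4, which had the widest difference between fractions. RefSeq promoters of build GRCm38.p6 matched 33 of the 37 tested genes, with 43 promoters. The 250 bases before each start were searched on both strands for TGGGAA, the core bound by the Notch partner RBPJ, for CACGTG, which Hey proteins can bind, and for AGGAAG and CGGAAG, cores of ETS factor sites. TGGGAA stood in 8 of the 43 promoters (18.6%, beside 21.6% of 32851 promoters of the genome). CACGTG stood in 2 (4.65%, beside 6.02%), and at least 1 of the 2 ETS cores stood in 21 (48.8%, beside 39.2%). None of the windows of Sema3a, Sema3g, Sema7a, Ephb1, Ephb2 and Unc5b held TGGGAA, which says only that these letters are not in those windows. AGGAAG began 49 bases before the start of Robo4 and 103 bases before that of Sema3a on the gene's strand. Its reverse complement, written CTTCCT in the gene's direction, began 89 bases before the start of Sema3g and 182 before that of Ephb1. The Sema7a window held none of the 4 motifs. The windows follow, 5′ to 3′ in the gene's direction, with these motifs in capitals, which mark letters and not measured binding.
Robo4, chr9:37401722-37401971, plus strand: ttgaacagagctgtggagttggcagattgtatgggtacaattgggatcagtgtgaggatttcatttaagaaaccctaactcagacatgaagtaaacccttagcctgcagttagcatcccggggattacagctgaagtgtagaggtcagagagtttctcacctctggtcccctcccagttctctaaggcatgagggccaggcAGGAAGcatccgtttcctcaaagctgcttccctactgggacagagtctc
Sema3a, chr5:13396534-13396783, plus strand: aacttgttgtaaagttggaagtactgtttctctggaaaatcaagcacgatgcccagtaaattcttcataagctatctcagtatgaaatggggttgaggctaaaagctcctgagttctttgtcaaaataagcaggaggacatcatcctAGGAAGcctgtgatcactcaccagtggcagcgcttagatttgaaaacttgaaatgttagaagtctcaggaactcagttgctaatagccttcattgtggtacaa
Sema3g, chr14:31217623-31217872, plus strand: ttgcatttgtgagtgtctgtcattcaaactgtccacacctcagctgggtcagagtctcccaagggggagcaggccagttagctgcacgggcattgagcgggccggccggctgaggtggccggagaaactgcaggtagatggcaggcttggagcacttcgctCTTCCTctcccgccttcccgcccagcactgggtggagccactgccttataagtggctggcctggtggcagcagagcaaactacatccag
Sema7a, chr9:57939862-57940111, plus strand: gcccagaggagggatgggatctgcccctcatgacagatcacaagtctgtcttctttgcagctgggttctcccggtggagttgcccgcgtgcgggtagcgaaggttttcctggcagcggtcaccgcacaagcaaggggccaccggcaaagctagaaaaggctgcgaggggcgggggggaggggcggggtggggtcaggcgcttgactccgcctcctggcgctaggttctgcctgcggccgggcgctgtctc
Ephb1, chr9:102354694-102354943, minus strand: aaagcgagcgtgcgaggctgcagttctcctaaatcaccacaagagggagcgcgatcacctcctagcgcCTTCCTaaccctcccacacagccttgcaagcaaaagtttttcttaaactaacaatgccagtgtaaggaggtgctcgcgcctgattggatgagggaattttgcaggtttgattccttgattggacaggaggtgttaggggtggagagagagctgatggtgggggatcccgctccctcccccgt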

How the data were processed

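The 24 arrays came as 3 raw tables, 1 for each replicate number. Per the file headers, every array has 2 columns in them, its probes' signal and detection p-value. The deposited intensity values had no background correction or normalization that a header or label records, and the detection p-values are those the authors exported. Per the labels' protocols, the RNeasy kit gave the RNA and the MessageAmp kit the biotinylated cRNA. A table of the authors' own processed values, of unstated scaling, served as an alternative.

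Background was corrected from the detection p-values (limma's nec, offset 16), arrays were quantile normalized, and a probe was kept if some group detected it (p under 0.05) on each of its 3 arrays. The brightest kept probe stood for a symbol, and Efna4, Sema3f, Sema5a and Sema6b had a second one. One linear model of 8 group means over all 9591 genes (R 4.3.3, limma 3.58.1, 24 arrays) gave all differences, with Benjamini-Hochberg adjustment over those genes and a threshold of 0.05. The script was tested on simulated data. The precision rests on the 3 arrays of each group. Mean raw intensity ran from 165 to 656 over the arrays, which detected between 41.8% and 51.3% of their probes, and no pair of arrays had a rank correlation above 0.958.

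Replicate numbers paired the arrays. Deviations from group means correlated between 0.293 and 0.777 over the 84 pairs that share a number and between -0.626 and 0.0947 over the 168 pairs that share neither number nor group. The number of each replicate is also the table it came in. The fit with the replicate set as a block was an alternative, as were median scaling, no detection filter, no background correction, an offset of 50, the authors' values, the mean over probes, and leaving out each array or set.

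Values of every array are given for vascular guidance genes listed by name, for genes called under induction and for the 10 with the largest called fraction difference. The members and lists were chosen with earlier results of these data known. Sequences are RefSeq's. No protein sequences were used here.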

Additional observations from a re-analysis of the deposited data

Results flagged for a closer look

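For 5 guidance genes the 3 replicate sets all responded to induction in one direction in one fraction and all in the other direction in another. How many of all genes did so was not counted, so these 5 are a list and not a trait of the guidance genes. These opposite directions were not tested pair by pair, and the test over all 4 fractions called none of these genes, the lowest adjusted p over the guidance genes being 0.172 (limma). Unc5c, a netrin receptor, was lower in induced VE sp cells and higher in induced CD41 sp and DN cells, and its response in CD41 sp and in DN cells exceeded that in VE sp cells by 0.949 and 1.036 on the log2 scale. Ephb4, the receptor of ephrin-B2, was higher in induced VE sp and lower in induced DP and DN cells, with differences of 0.7733 and 0.6298. Robo4 was lower in induced VE sp and higher in induced CD41 sp and DN cells, with differences of 0.6373 and 0.5616. Its tested probe was detected on 1 of the 12 CD41 sp and DN arrays, so its response there is a reading near background. Efna5 was lower in induced CD41 sp cells and higher in the other fractions, with differences of 0.6127 for VE sp, 0.6236 for DP and 0.5271 for DN cells. Efna4 was higher in induced VE sp and lower in induced DN cells, with a difference of 0.7184.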

How the results depend on the processing

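Of 101 calls of a guidance gene in a comparison, none changed direction under any alternative, and all 101 were kept with the replicate block and with the mean over probes. Without the detection filter 97 were kept, with an offset of 50 91, and without background correction 88. Median scaling kept 60 (79 with the block) and the authors' processed values 52 (101 with the block). With any 1 array left out 71 were kept, and with any set 56. The cause of these losses was not tested.

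With the replicate block the called guidance genes went from 3 to 5 in the induction of VE sp cells, from 1 to 3 in DN cells, from 3 to 9 on average and from 0 to 1 in the test of different responses. The block ended no call, and it added from 3 to 7 in each comparison of fractions (24, 21 and 19 for VE sp, DP and CD41 sp against DN, 19 for DP against VE sp, 12 and 25 for CD41 sp against DP and VE sp, and 29 over all fractions). Of the 19 for DP against VE sp cells, 2 (Sema4b and Sema4d) were higher. With median scaling they were 0 in VE sp, 0 in DN and 1 on average. They were 2, 1 and 1 when the block was added to it, beside 86, 59 and 173 over all genes. That scaling gave 11 for VE sp against DN, 11 for DP against DN, 9 for CD41 sp against DN and 5 for DP against VE sp cells. It moved the median of all genes from 0.01 to 0.14 in VE sp and from -0.01 to -0.19 in CD41 sp induction, from 0.05 to 0.30 for DP against VE sp and from 0.10 to 0.33 for CD41 sp against VE sp cells. The authors' values gave 0 in VE sp, 0 in DN and 0 on average (6, 3 and 8 with the block), and 9, 8, 9, 9 and 3 for VE sp, DP and CD41 sp against DN, DP against VE sp and CD41 sp against DP cells, with 15 over all fractions. CD41 sp against DN cells split 2 higher to 13 lower, and 0 to 9 under both of these scalings. Calls over all genes moved as well. In VE sp induction, DN induction and the average they were 109, 89 and 285 in the main fit. They came to 418, 394 and 1242 with the block, 23, 34 and 71 with median scaling, and 11, 12 and 46 in the authors' values. For VE sp against DN cells they were 2361, 4205, 1099 and 1024, in that order. The other fraction comparisons also gained calls with the block and lost calls under both scalings. In the same order, DP against DN cells gave 2114, 3779, 1225 and 1027. CD41 sp against DN cells gave 1498, 2903, 863 and 697. DP against VE sp cells gave 977, 2062, 398 and 421. CD41 sp cells gave 1183, 2569, 543 and 489 against DP and 2763, 4566, 1546 and 1339 against VE sp cells. The test over all fractions gave 3374, 5798, 1864 and 1664. With the block, the authors' values gave 456, 486 and 1371 in VE sp induction, DN induction and the average.

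Leaving out 1 array or 1 set gave 0 to 3 calls in VE sp, 0 to 2 in DN and 0 to 4 on average. VE sp induction came to 1 without non-induced replicate 1 or induced replicate 3, and DN to 0 without non-induced replicate 2 or induced replicate 3 and to 2 without non-induced VE sp replicate 3. The average came to 1 without replicate 1 of non-induced CD41 sp, 2 or 3 of non-induced DP or 2 of induced VE sp cells. The fraction counts ranged from 11 to 19 for VE sp against DN, 11 to 17 for DP against DN, 7 to 16 for CD41 sp against DN, 11 to 15 for DP against VE sp, 3 to 9 for CD41 sp against DP, 18 to 23 for CD41 sp against VE sp and 20 to 28 over all fractions. Over all genes the induction calls with 1 array left out ranged from 65 to 116 in VE sp, 47 to 93 in DN and 201 to 296 on average. For VE sp, DP and CD41 sp against DN cells they ranged from 1905 to 2533, 1683 to 2262 and 1059 to 1602. DP against VE sp cells gave 717 to 1055, and CD41 sp against DP and VE sp cells 850 to 1289 and 2323 to 2971. The test over all fractions gave 3020 to 3587. Members read near background, such as Sema3g and Sema7a outside VE sp cells, have only upper bounds there.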
